A study of Mus musculus with 74 samples.

Results

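The motile cilia genes followed here are a list of 50 mouse genes that encode the parts of beating cilia and the factors that switch those parts on. The list was named gene by gene and was proposed with results of these data known, in particular the levels of its genes in each Aire mutant and in C442G heterozygotes beside other heterozygotes. Every statistic on these 50 genes is therefore a description of the libraries and no independent test. Of the 50 genes, 47 were listed in at least 1 of 6 deposited count tables, which together list 17853 genes, and 43 were listed in all 6. Dnah3, Dnah12 and Cdhr4 were listed in none. Dnah7a was listed in the V303M table only, Lrrc6 was missing from the C313X table, and Ccdc103 and Spag17 were missing from the table of the null line.

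Motile cilia are built by multiciliated cells, such as those that line the airway. In such cells multicilin (Mcidas) acts with E2F factors to start the programme, cyclin O (Ccno) is needed to make many basal bodies, and Foxj1 with the RFX factors turns on the genes of the moving shaft. The shaft carries dynein motors, assembled in the cytoplasm with helper proteins and spaced by rulers, together with nexin links, radial spokes and a central pair of microtubules. In the thymus, AIRE makes mature medullary epithelial cells express genes of other tissues, and small groups of medullary cells take on the look of peripheral cell types, ciliated cells among them.

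The study measured 74 libraries by MARS-seq, in which short tags near transcript 3' ends are read, from sorted mTEChi, the mature MHC class II-high medullary thymic epithelial cells, of mice aged 4 to 7 weeks. On C57BL/6 (B6), the null line gave 3 wild-type, 5 Aire +/- and 4 Aire -/- libraries, Y86C gave 3 libraries of each genotype, C313X gave 3 wild-type, 2 heterozygous and 3 homozygous libraries, and C442G gave 3, 5 and 6. On NOD, V303M gave 3 libraries of each genotype, and the null line gave 3 Aire +/- and 3 Aire -/- libraries. The C313Y line on NOD gave 4 +/C313Y libraries beside 5 wild types, 2 of them titled C313T, and 3 -/C313Y libraries, which carry a null allele opposite C313Y, beside 3 further wild types. On B6 and in V303M the mutant libraries of a line share that line's wild types, whereas NOD Aire -/- is set against Aire +/-. Nothing in the labels says how many mice or which litters a group came from, so the spread between libraries may be technical in part.

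Library totals ran from 1016619 to 7225403 counts. Markers of the sorted cells were high in every library, with Aire at 1602 to 4758 CPM (counts relative to the library total) and H2-Aa, an MHC class II chain, at 8282 CPM or more. Markers that define other cells were not absent, and their levels differed. Psmb11 of cortical epithelium was at 0 to 8.28 CPM, whereas Prss16, another cortical marker, was at 39.4 to 424 CPM. Cd3e of thymocytes, listed in 5 tables, was at 0 to 10.2 CPM, and Cd79a of B cells, listed in 3, at 0 to 5.67 CPM. Lyz2 of myeloid cells was at 312 to 1297 CPM and Col1a1 of fibroblasts at 1.07 to 148 CPM. Aire tags did not check the labels: they were higher in Aire -/- than in wild type on B6 (3162 ± 364 CPM, SD, n = 4, against 2125 ± 79.4, n = 3), the labels leave the deleted stretch unnamed, and a 3' tag outside it would be kept. A few libraries held the highest value of their group for most members, among them C442G wild type 88 (31 of 46 members with a count), C313X heterozygote 3 (38 of 45), C313X wild type 6 (30 of 45), V303M homozygote 42 (31 of 47) and V303M heterozygote 54 (29 of 47). Of the counts of called members below, that in C313X homozygotes was 14 without wild type 6 or homozygote 10 in place of 21, and others that moved by over 1.5 times are given beside their comparison.

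Ccno and Mcidas are neighbours on chromosome 13 and are read from the same strand, with 3067 bp between them (GRCm38 annotation, 112987802 to 112990777 for Ccno and 112993845 to 113000394 for Mcidas). The 50 genes lie on 17 chromosomes, and the next closest pair, 1110017D15Rik and Dnaic1 on chromosome 4, is 52.4 kb apart. RefSeq promoter sequences (build GRCm38.p6, 250 bases before to 50 bases after the transcription start) were at hand for 43 members. A relaxed form of the X-box that RFX factors bind, an inverted repeat of the half-site GTNNCC around NN searched on both strands, was found in a window of 6 of these 43 genes (14%) and of 583 of all 27025 genes with a window (2.16%). The stricter form with the half-site GTTNCC, which is contained in the relaxed one, was found in 1 member (Pifo) and in 0.529% of all genes, and the forkhead core GTAAACA, on either strand and in no X-box, in Ak7 and Mlf1 (4.65% of members, 4.05% of all genes). The relaxed matches were in Ccno, Pifo, Rfx2, Rsph9, Tekt4 and Zmynd10. Among members with a window, 4 of the 27 called lower in C442G homozygotes held one (14.8%), and 2 of the 16 others (12.5%). The promoters below are those of the neighbouring regulators and of a dynein assembly gene and a radial spoke gene with a relaxed match, which return in the results because they were low together. Capitals mark the relaxed match, and the Mcidas window holds none of the 3 motifs.
Ccno, chr13:112987552-112987851, plus strand: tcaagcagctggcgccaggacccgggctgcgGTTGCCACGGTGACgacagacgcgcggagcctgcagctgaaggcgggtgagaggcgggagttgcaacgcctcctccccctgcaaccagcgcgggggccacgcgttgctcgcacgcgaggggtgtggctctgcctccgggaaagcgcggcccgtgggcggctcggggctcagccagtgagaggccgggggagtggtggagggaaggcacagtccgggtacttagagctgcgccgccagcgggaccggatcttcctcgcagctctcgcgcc
Mcidas, chr13:112993618-112993917, plus strand: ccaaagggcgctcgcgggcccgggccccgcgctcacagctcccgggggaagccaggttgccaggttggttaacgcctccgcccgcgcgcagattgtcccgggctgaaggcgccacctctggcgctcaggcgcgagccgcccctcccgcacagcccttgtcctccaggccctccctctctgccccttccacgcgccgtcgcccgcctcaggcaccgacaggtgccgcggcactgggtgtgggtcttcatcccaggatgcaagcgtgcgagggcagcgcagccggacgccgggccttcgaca
Zmynd10, chr9:107547054-107547353, plus strand: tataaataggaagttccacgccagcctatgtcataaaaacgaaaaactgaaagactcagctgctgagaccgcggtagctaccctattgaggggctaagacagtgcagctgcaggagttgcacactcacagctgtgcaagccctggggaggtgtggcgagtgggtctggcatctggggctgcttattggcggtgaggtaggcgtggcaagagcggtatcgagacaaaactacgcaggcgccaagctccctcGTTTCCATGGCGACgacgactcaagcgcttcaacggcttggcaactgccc
Rsph9, chr17:46144151-46144450, minus strand: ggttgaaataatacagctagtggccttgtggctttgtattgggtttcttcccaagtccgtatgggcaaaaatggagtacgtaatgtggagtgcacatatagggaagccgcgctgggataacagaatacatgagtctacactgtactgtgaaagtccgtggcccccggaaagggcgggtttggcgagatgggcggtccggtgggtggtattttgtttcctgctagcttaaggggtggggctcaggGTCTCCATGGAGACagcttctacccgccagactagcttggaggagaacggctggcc
The match begins 219 bases before the start in Ccno and 6 bases before it in Rsph9, where it runs across the start. In Zmynd10 it begins at the start itself and lies after it. A match of letters is a description of these windows and not a binding site.

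In normal cells the programme was present at a low level that differed between its parts. Over wild-type libraries the 5 most abundant members were Foxj1 at a mean of 99.6 CPM, Dnaic2, an intermediate chain of the outer dynein arm, at 81.5 CPM, Tppp3, a microtubule protein, at 69.5 CPM, Lrrc23, a radial spoke protein, at 34.7 CPM and Ccno at 32.3 CPM. These levels are not corrected for transcript length, and genes are not compared further by level. The listed members that were tested in no single table reached at most 5.89 CPM in any library (Spag16), with Ccdc103 at most 4.91, Spag17 4.31, Lrrc6 4.00 and Dnah7a 2.80 CPM. Summed over the listed members, wild types held 594 ± 21.7 CPM in the null line, 867 ± 49.9 in Y86C, 702 ± 141 in C313X and 915 ± 158 in C442G (SD, n = 3 each).

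In mice without a normal copy of Aire the summed level was lower in every line but V303M, and no mutant library reached the lowest control library there. It was 428.6 ± 32.9 CPM in Y86C homozygotes, 49.4% ± 3.80 of wild type (SD, n = 3), 347 ± 11.8 CPM or 49.4% ± 1.69 in C313X homozygotes (n = 3), and 427 ± 37.6 CPM or 46.7% ± 4.11 in C442G homozygotes (n = 6). On NOD it was 337 ± 23.5 CPM in Aire -/-, 50.2% ± 3.51 of Aire +/- (n = 3), and 363 ± 26.0 CPM in -/C313Y, 66.4% ± 4.74 of wild type (n = 3). The smallest difference was in B6 Aire -/-, at 490 ± 30.1 CPM or 82.5% ± 5.07 of wild type (n = 4). This value leans on abundant members that were higher there. Without Foxj1, at 92.3 ± 21.3 CPM against 67.9 ± 1.04 in wild type, it was 75.6%. Dnaic2, at 128 ± 6.47 CPM against 89.8 ± 11.6, differed by more and was not left out. In bulk RNA, fewer cells of a type and less RNA per cell cannot be told apart.

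**Figure D1:**
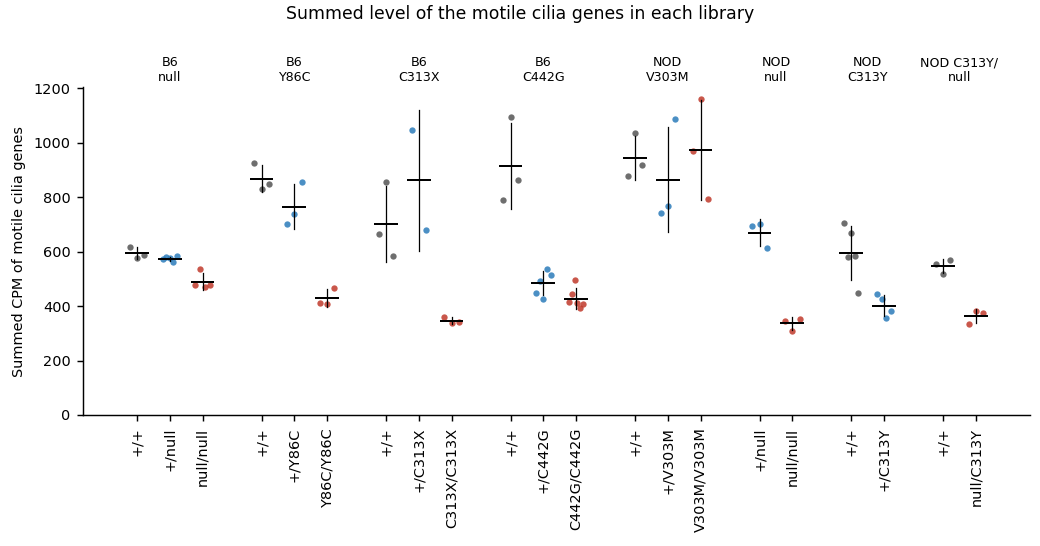
Summed CPM of the motile cilia genes (y axis) in each library (points), by group (x axis), with the line of each mutation named above and the - allele written as null. Horizontal lines are means and vertical lines are SDs. The C442G heterozygotes, at 427.6 to 536 CPM, lie beside the homozygotes of their line and below its wild types, at 791 to 1094 CPM, whereas heterozygotes of the null line, Y86C and C313X overlap their wild types.

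Multicilin was at or near 0 in every group without a normal copy except V303M homozygotes. In B6 Aire -/- it stood at 0, 0, 0.276 and 0.401 CPM against 4.64, 4.73 and 8.39 CPM in wild type, and the groups did not overlap. All 3 Y86C homozygotes and all 3 C313X homozygotes were at 0, against 6.89, 9.97 and 16.1 CPM and 7.44, 8.30 and 9.20 CPM in their wild types. Taking 3 counts per group as the floor, they were at least 32.4-fold and at least 26.95-fold lower. The 6 C442G homozygotes ranged from 0 through a median of 0 to 0.543 CPM, a single library having any count, beside 7.99, 9.11 and 17.8 CPM in wild type. That is a 135-fold difference with a 95% counting interval of 36.4 to 1133. NOD Aire -/- libraries were at 0, 0 and 0.790 CPM against 4.41, 5.68 and 7.04 CPM in Aire +/-, and -/C313Y libraries at 0, 0.274 and 0.560 CPM against 3.40, 5.33 and 5.80 CPM in wild type. In NOD Aire -/- the call was lost without homozygote 404, at a log2 change of -3.27. Intervals and floors cover counting error only.

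Cyclin O followed multicilin closely in these groups. It was at 0.751, 0.829, 1.03 and 2.81 CPM in B6 Aire -/- against 17, 21.3 and 23.0 CPM in wild type, a log2 change of -3.81 ± 0.39 (SE). Y86C homozygotes were at 0.588, 0.830 and 0.998 CPM against 29.2, 35.2 and 36.8 CPM (-5.11 ± 0.34). No mutant library came near a wild type in either line. The change was -5.54 ± 0.57 in C313X, -6.60 ± 0.39 in C442G and -3.56 ± 0.48 in NOD Aire -/-, and in -/C313Y it was -2.31 ± 0.40.

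Foxj1, which drives the shaft genes, was called lower in no comparison. In B6 Aire -/- it was at 79.1, 79.7, 86.5 and 124 CPM, all above the wild types at 66.8, 68.0 and 68.9 CPM, and edgeR's quasi-likelihood test called it higher by 0.54 ± 0.13 on the log2 scale. In C442G homozygotes it ranged from 76.5 through a median of 85.9 to 102 CPM, within the wild-type values of 74.0, 75.9 and 127 CPM. Its log2 change was -0.06 ± 0.13 in Y86C, -0.06 ± 0.20 in C313X and -0.02 ± 0.19 in -/C313Y, none of them called, though the change in Y86C was called at -0.31 without scaling factors. In NOD Aire -/- the 3 libraries, at 56.6, 59.9 and 64.8 CPM, lay below Aire +/- at 93.1, 99.1 and 106 CPM, but the log2 change of -0.56 ± 0.20 was not called, and was called at -0.58 with only these groups in the fit and at -0.71 without scaling factors. Rfx2 was called in no comparison, and Rfx3 was called lower in C442G homozygotes alone (-1.06 ± 0.42), a call that DESeq2 and the omission of several single libraries ended.

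**Figure D2:**
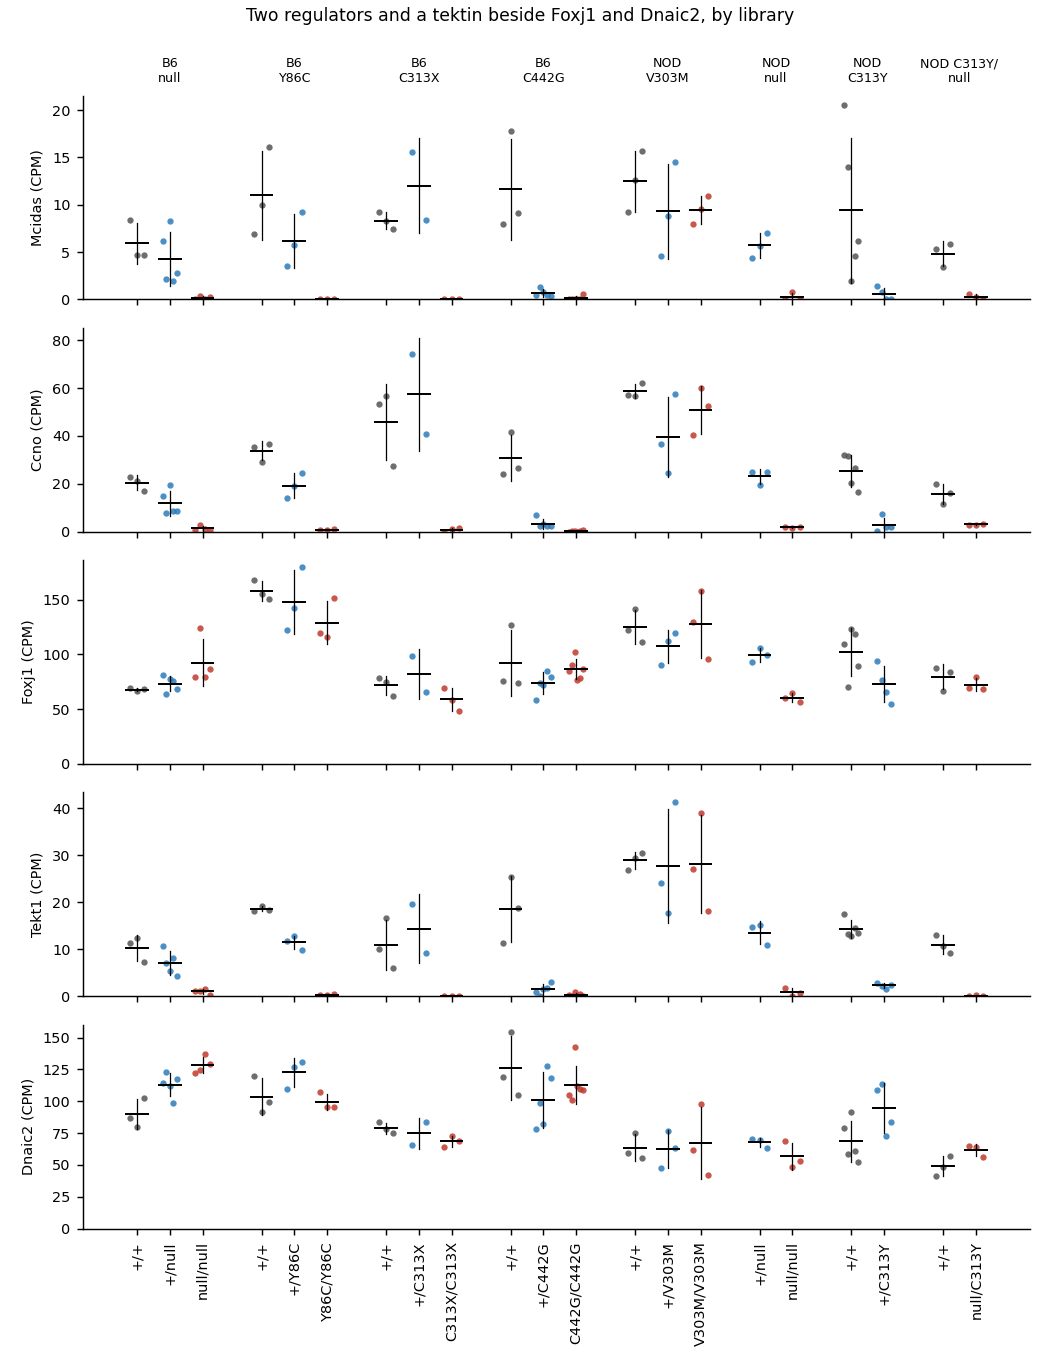
Levels in CPM (y axis) of Mcidas, Ccno, Foxj1, Tekt1 and Dnaic2, 1 panel each, in every library (points) by group (x axis), with means and SDs as horizontal and vertical lines. Mcidas, Ccno and Tekt1 are near 0 in homozygotes of the null, Y86C, C313X and C442G lines and low in C442G heterozygotes, whereas Foxj1 and Dnaic2 overlap wild type in C442G homozygotes and lie above it in B6 Aire -/-.

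Counts over the tested members show the same division. In B6 Aire -/- 17 of 30 tested members were called lower and 3 higher (edgeR, adjusted p under 0.05 over all genes), where 18.9% of all tested genes were called lower and 17.7% higher. In Y86C homozygotes 28 of 37 were called lower, beside 27.9% lower among all genes. In C313X homozygotes 21 of 41 were called lower beside 15.2%, and in C442G homozygotes 30 of 39 beside 23.1%. On NOD 16 of 36 were called lower in Aire -/- beside 9.11%, and 18 of 36 in -/C313Y beside 12.9%. The members' median log2 change was -0.95 in B6 Aire -/-, -1.74 in Y86C, -1.44 in C313X, -1.62 in C442G, -1.17 in NOD Aire -/- and -0.93 in -/C313Y, where the median over all genes was -0.01 in B6 Aire -/- and -0.03 in Y86C. Members enter a fit when their counts are high enough in some group, often the controls, so the tested members are not all 50 and these counts support nothing on their own.

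Scaling bears on such counts. Fitted without scaling factors, the median of all genes shifted by -0.25 in Y86C homozygotes, by -0.20 in C313X and C442G homozygotes and by -0.15 to -0.11 in the other groups without a normal copy. The lower share of all calls then moved from 56.3% to 76.3% in Y86C and from 54.2% to 74.1% in C442G homozygotes, and from 51.6% to 65.1% in B6 Aire -/-. It moved from 66.0% to 81.3% in C313X homozygotes, from 68.4% to 83.1% in NOD Aire -/- and from 56.7% to 69.9% in -/C313Y. The members called lower became 18, 29, 22 and 32 in the null, Y86C, C313X and C442G homozygotes on B6, and 22 and 19 in NOD Aire -/- and -/C313Y. Of all genes, 24.2%, 40.8%, 20%, 32.7%, 11.3% and 16.3% were then called lower, in the same order. No named member changed direction under any scaling.

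Across the 6 groups without a normal copy other than V303M, 11 members were called lower in all, of 30 tested in all 6, where 5.37% of the genes tested in all 6 were. They were Mcidas, Ccno, Zmynd10, Dynlrb2, Rsph1, Rsph9, Tekt1, Tekt4, Ak8, Lrrc23 and 1110017D15Rik. Over the 13 comparisons with a control of their own, 35 of the 42 members tested at least once were called lower at least once, where 36.4% of all genes so tested were, and 12 were never called, 8 of them not being tested in any of these comparisons. The 4 that were tested and never called were Rfx2, Dnaaf3, an assembly factor, Ccdc114, a docking protein of the outer arm, and Rsph4a, a radial spoke protein. Dnaaf3 counts are uncertain, since its 3' end is overlapped by Tnni3 on the same strand and the use of strand is not given in the sources used here. The same holds for 8 other members with an overlapped 3' end: Dnah3, Dnah11, Dnaic1, Dnaaf1, Dnali1, Ccdc39, Rsph9 and Spag17. Counts of Spag6 are uncertain for its near copy Spag6l.

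**Figure D3:**
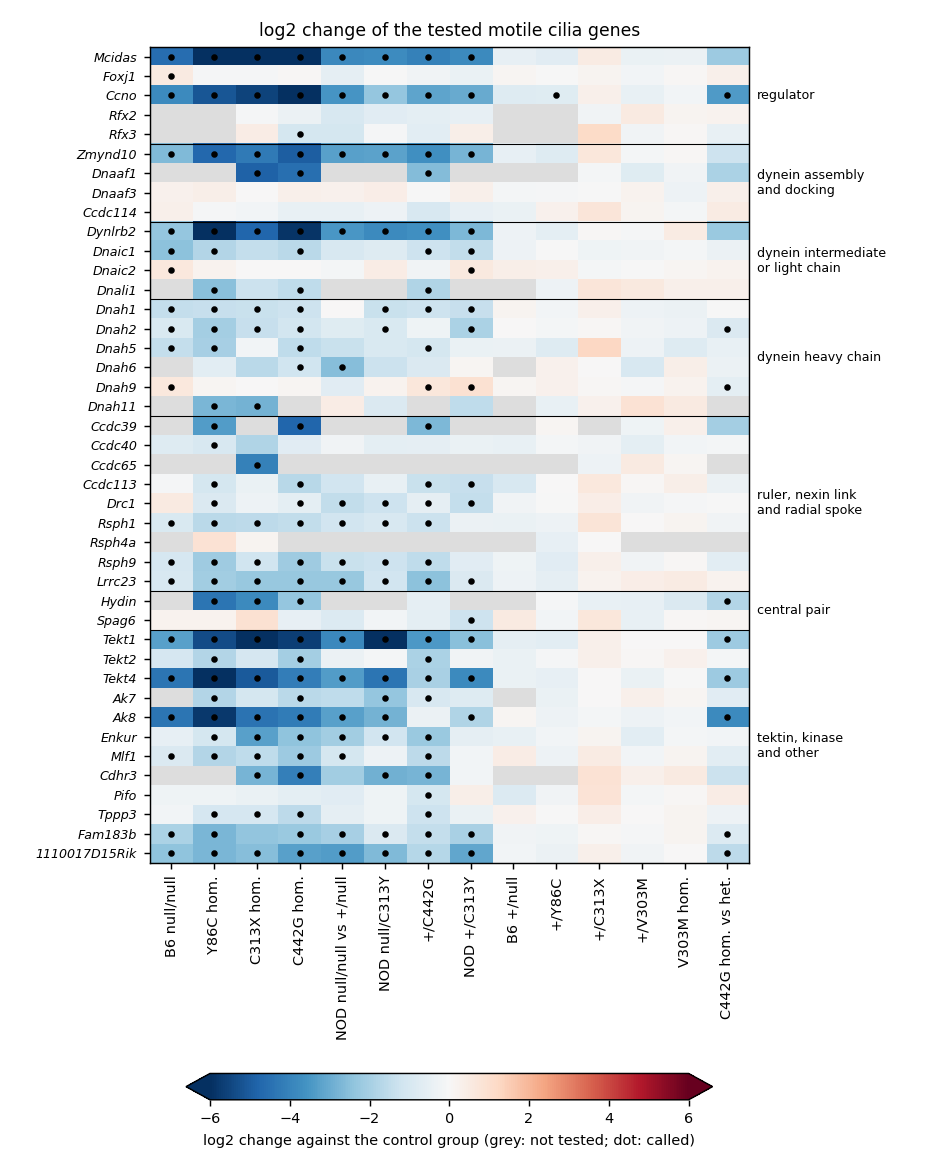
log2 change (colour, capped at 6 either way) of each tested member (rows, grouped by role) in each comparison (columns), with grey for members not tested. Rows of Mcidas, Ccno, Zmynd10, Dynlrb2, Tekt1 and Tekt4 are blue in all groups without a normal copy except V303M, in C442G heterozygotes and in +/C313Y, whereas rows of Foxj1, Dnaic2 and Dnah9 stay pale.

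The dynein system was split between its parts. Zmynd10, which helps to assemble the arms before they enter the cilium, was at 0.553, 1.03, 1.13 and 2.4 CPM in B6 Aire -/- against 4.14, 7.21 and 13.5 CPM, a log2 change of -2.67 ± 0.48. It was at 0, 0.499 and 0.553 CPM in Y86C homozygotes against 9.97, 12.1 and 13 CPM (-4.71 ± 0.52). Groups did not overlap in either line. Dynlrb2, a light chain of cytoplasmic and ciliary dynein, was 109-fold lower in Y86C homozygotes (counting interval 19.1 to 4366) and changed by -5.88 ± 0.59 in C442G homozygotes. Of the heavy chains, which are the motors, Dnah2 of an inner arm fell by 2.02 ± 0.21 on the log2 scale in Y86C and by 1.12 ± 0.17 in C442G homozygotes.

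Dnah9, the outer-arm motor of the distal shaft, and Dnaic2 were called lower in none of the 13 comparisons with a control of their own. In B6 Aire -/- Dnah9 was at 38.7, 38.9, 43.7 and 47.2 CPM against 23.7, 29.9 and 32.5 CPM, called higher by 0.64 ± 0.17. Dnaic2 was at 122, 125, 129 and 137 CPM against 79.9, 87.2 and 103 CPM, called higher by 0.61 ± 0.10. Every mutant library was above every wild type for both genes. In C442G homozygotes the changes were 0.10 ± 0.13 and 0.03 ± 0.14 and were not called.

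Tekt1, a tektin that runs along the shaft microtubules, and Ak8, an adenylate kinase of cilia, were low in these groups. Tekt1 was at 0 in all 3 C313X homozygotes against 6.09, 10.1 and 16.6 CPM in wild type, at least 38.2-fold lower. In Y86C homozygotes it was at 0.277, 0.294 and 0.499 CPM against 18.2, 18.4 and 19.2 CPM, 56.1-fold lower (counting interval 18.8 to 275). Neither pair of groups overlapped. Ak8 was at 0.276, 0.514, 1.13 and 1.20 CPM in B6 Aire -/- against 17.1, 18.3 and 19.1 CPM, a change of -4.40 ± 0.37. Tekt2, another tektin, was called lower in Y86C (-1.74 ± 0.47) and C442G homozygotes (-2.02 ± 0.32), and not in B6 Aire -/- (-1.01 ± 0.44), C313X (-0.997 ± 0.595), NOD Aire -/- (-0.34 ± 0.32) or -/C313Y (-0.11 ± 0.30). Of the radial spoke genes, Rsph1, a spoke head protein, changed by -0.92 ± 0.24 in B6 Aire -/- and -1.64 ± 0.25 in Y86C, Rsph9 by -1.02 ± 0.28 and -2.13 ± 0.26, and Lrrc23 by -0.98 ± 0.23 and -2.08 ± 0.21. Hydin, of the central pair, was at 0, 0.277 and 0.294 CPM in Y86C homozygotes against 5.70, 6.73 and 7.29 CPM, a change of -4.39 ± 0.62.

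The heterozygotes set C442G apart from the other B6 alleles. In +/C442G the summed level was 484 ± 45.2 CPM (SD, n = 5), 52.9% ± 4.94 of the 3 wild types, and the highest heterozygote (536 CPM) was below the lowest wild type (791 CPM). In Aire +/- on B6 it was 574 ± 7.55 CPM or 96.7% ± 1.27 of wild type (n = 5), in +/Y86C 765 ± 82.2 CPM or 88.2% ± 9.48 (n = 3), and the 2 +/C313X libraries were at 679 and 1045 CPM against a wild-type mean of 702 CPM. All 3 overlapped their wild types. The sum in Aire +/- joins members on either side of wild type. Dnaic2 was at 113 ± 9.08 CPM against 89.8 ± 11.6, and Ccno at 11.8 ± 5.17 CPM against 20.4 ± 3.08. On NOD +/C313Y stood at 401 ± 39.5 CPM or 67.4% ± 6.64 of wild type (n = 4) without overlap.

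In +/C442G 26 of 39 tested members were called lower and 1 higher (Dnah9), beside 13.4% of all genes lower and 13.1% higher, and 38 of the 39 log2 changes were below 0. The members' median was -1.26 against 0.01 over all genes. Without scaling factors the median of all genes shifted by -0.13 and the lower share of all calls moved from 50.6% to 70.1%. There 27 members were called lower, beside 19% of all genes. In Aire +/- edgeR called 0 of 30, where 61 of all genes (0.48%) were called, and in +/C313X 0 of 41, where 0 genes (0%) were. DESeq2 also called 0 in both, and 4 and 1 members had an unadjusted p under 0.05. Without scaling factors the members' median log2 change was -0.31 in Aire +/-, -0.25 in +/Y86C and 0.33 in +/C313X, beside -1.40 in +/C442G. In +/Y86C 1 of 37 was called lower, Ccno at -0.71 ± 0.19, beside 1.04% of all genes, and DESeq2 or the omission of several single libraries ended that call. In +/C313Y 16 of 36 were called lower, beside 11% of all genes, and 2 higher, beside 6.36%. Without scaling factors its median of all genes shifted by -0.11 and the lower share of all calls moved from 63.4% to 76.4%. There 18 members were called lower, beside 13.1% of all genes.

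**Figure D4:**
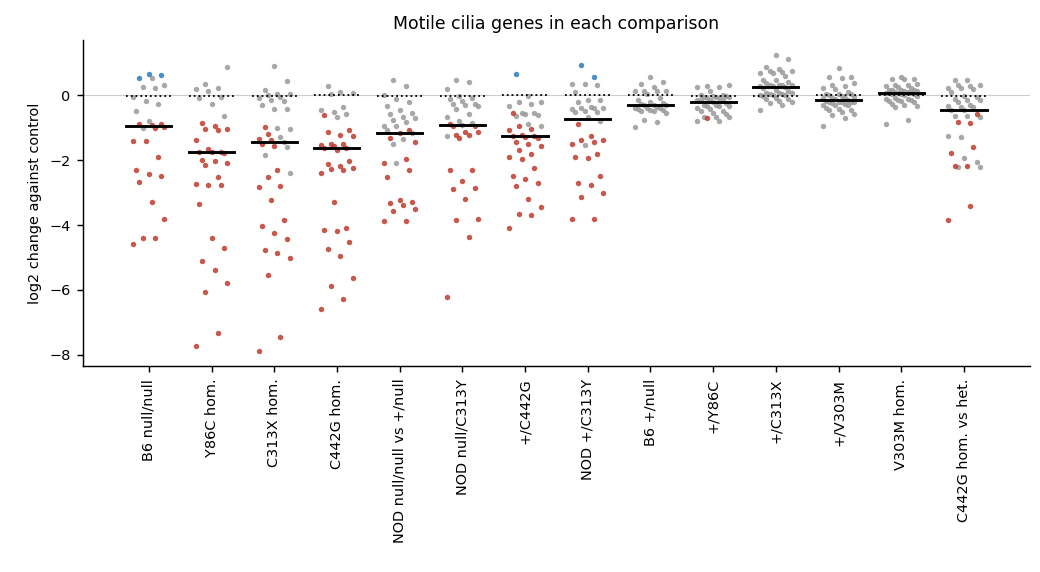
log2 change against the control of each comparison (y axis) for every tested member (points), by comparison (x axis), coloured by call at an adjusted p under 0.05. Points of +/C442G reach from -4.08 to 0.67 and those of the V303M homozygotes from -0.89 to 0.55.

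Single genes show how far the C442G heterozygotes stood from their wild types. Mcidas was at 0.308, 0.458, 0.477, 0.744 and 1.30 CPM against 7.99, 9.11 and 17.8 CPM in wild type, a log2 change of -4.08 ± 0.47. Ccno was at 2.15, 2.16, 2.16, 3.35 and 6.87 CPM against 24, 26.8 and 41.8 CPM (-3.19 ± 0.29). The highest heterozygote was below the lowest wild type for both. Zmynd10 was at 0.864, 1.19, 1.49, 1.85 and 3.21 CPM against 19.4, 19.4 and 31.2 CPM (-3.69 ± 0.32). Tekt1 was at 0, 0.916, 1.49, 1.67 and 3.08 CPM against 11.4, 18.8 and 25.4 CPM (-3.45 ± 0.41). Lrrc23 was at 4.32 to 8.25 CPM against 26.8 to 48.9 CPM (-2.48 ± 0.23), and Tppp3 at 25.7 to 39.4 CPM against 80.8 to 108 CPM (-1.26 ± 0.15). Groups again did not overlap. Foxj1 changed by -0.20 ± 0.15 and was not called.

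In the other B6 heterozygotes Mcidas was called in no line. In Aire +/- it was at 1.91, 2.10, 2.81, 6.15 and 8.28 CPM, overlapping its wild types, and changed by -0.48 ± 0.46. It was at 3.53, 5.75 and 9.25 CPM in +/Y86C (-0.67 ± 0.36), and at 8.43 and 15.6 CPM in +/C313X (0.48 ± 0.41). Ccno in Aire +/- was at 7.71, 8.43, 8.60, 14.9 and 19.5 CPM, overlapping its wild types, and the change of -0.76 ± 0.27 was not called. In +/Y86C it was at 14.1, 18.9 and 24.7 CPM, all below the wild types at 29.2, 35.2 and 36.8 CPM. Tekt1 changed by -0.53 ± 0.34, -0.65 ± 0.23 and 0.31 ± 0.49 in Aire +/-, +/Y86C and +/C313X, and was not called in any, although the +/Y86C libraries, at 9.93, 11.8 and 12.7 CPM, all lay below their wild types at 18.2, 18.4 and 19.2 CPM.

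A joint fit of the B6 tables compared the heterozygous effects directly, each set against wild types of the same line. The 3 comparisons share the C442G libraries, so they are not independent of each other. Of 43 members in the fit, 10 were called lower in C442G than in the null line, where 3.51% of all genes were, and the members' median difference was -0.96. Against Y86C 11 were called lower beside 2% of all genes (median -1.16), and against C313X 20 beside 5.65% (median -1.82). The count against Y86C was 5 without +/Y86C 3 and 7 without Y86C wild type 1 or 2 or without C442G wild type 88 or 89, and the count against C313X was 7 without +/C313X 3, which leaves a single heterozygote that is assumed to vary like the others. Without scaling factors the counts were 13, 11 and 22, beside 4.73%, 2.45% and 9.38% of all genes. There the median of all genes shifted by -0.12 against the null line and by -0.19 against C313X, and the lower share of all calls moved from 61.1% to 80.5%, from 71.3% to 85.2% and from 53.3% to 78.5%.

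Against the null line the difference was -3.58 ± 0.68 for Mcidas, -3.34 ± 0.85 for Dynlrb2, -3.20 ± 0.60 for Zmynd10, -2.91 ± 0.55 for Tekt1, -2.42 ± 0.45 for Ccno and -2.16 ± 0.38 for Lrrc23. Against Y86C it was -3.37 ± 0.67 for Mcidas, -2.80 ± 0.54 for Tekt1 and -2.48 ± 0.44 for Ccno. Foxj1 (-0.32 ± 0.22 and -0.17 ± 0.22) and Ak8 (-0.45 ± 0.36 and 0.00 ± 0.31) were called in neither.

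Some single members were lower still in C442G homozygotes than in heterozygotes. Summed levels overlapped, at 88.2% ± 7.76 of heterozygotes, and 9 of 39 tested members were called lower, beside 14.1% of all genes lower. When only these groups entered the fit, 5 were called. These counts are near the share of all genes and are not read as a trait of the members. The lower share of all calls was 68.8%, and 81% without scaling factors. Ak8 was at 12.6, 13.4, 14.2, 15.1 and 17.6 CPM in heterozygotes, inside the wild-type values of 10.3, 21.1 and 26.8 CPM, and at 0 through a median of 0.875 to 2.12 CPM in homozygotes. Its log2 change was -0.33 ± 0.26 from wild type to heterozygote, not called, and -3.84 ± 0.33 from heterozygote to homozygote. Hydin was at 2.6 to 3.89 CPM in heterozygotes, within the wild-type range of 2.28 to 6.83 CPM, and at 0.267 to 1.36 CPM in homozygotes (-1.76 ± 0.42 from heterozygote to homozygote). For both genes the heterozygotes overlapped wild type and not the homozygotes.

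Ccno was lower at each step, by 3.19 and then by 3.41 ± 0.54 on the log2 scale, homozygotes being at 0 through a median of 0.274 to 0.543 CPM. Mcidas, already near 0 in heterozygotes, changed by -2.19 ± 0.89 and was not called, and was called at -3.96 without homozygote 93, the single homozygote with any count. Dnah2 (-0.85 ± 0.15), 1110017D15Rik (-1.58 ± 0.27), Tekt1 and Tekt4 (-2.19 each) and Fam183b (-0.82 ± 0.28, lost without any of 4 single libraries) made up the rest with Dnah9. Dnah9 took its own course: it was at 54.3, 56.8, 58.5, 59.5 and 68.7 CPM in heterozygotes, above both the wild types at 33.7, 42.7 and 45.4 CPM and the homozygotes at 34.0 to 44.1 CPM. It was called higher in heterozygotes by 0.67 ± 0.13 and lower from heterozygote to homozygote by 0.57 ± 0.11.

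**Figure D5:**
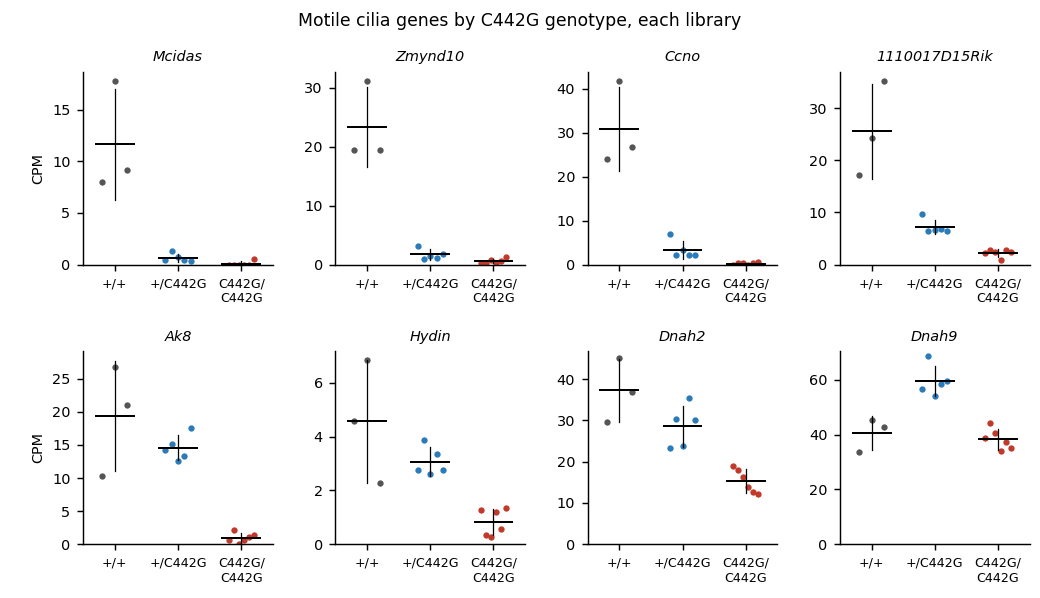
Levels in CPM (y axes, each from 0) of single motile cilia genes in each library (points) of +/+, +/C442G and C442G/C442G mice (x axes). Horizontal lines are means and vertical lines are SDs. Mcidas, Zmynd10 and Ccno are low in heterozygotes, Ak8 and Hydin overlap between wild type and heterozygote and are low in homozygotes, and Dnah9 is highest in heterozygotes.

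On NOD, Mcidas and Ccno were called lower in +/C313Y heterozygotes. Mcidas was at 0, 0, 0.760 and 1.43 CPM against 1.89, 4.53, 6.16, 14 and 20.5 CPM in wild type (-3.81 ± 0.70), and Ccno at 0.358, 2.01, 2.03 and 7.22 CPM against 16.6 to 31.9 CPM (-3.02 ± 0.35), without overlap for either. Ak8, at 1.62, 2.15, 3.42 and 4.01 CPM against 6.15 to 15.3 CPM (-1.82 ± 0.37), was called lower here. Dnah9 was called higher by 0.92 ± 0.22, and Dnaic2 by 0.57 ± 0.16, a call lost without heterozygote 50 or 53. No Aire +/- library stands in that comparison, and +/C313Y and +/C442G were not tested against each other, being on other strains and in other tables.

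V303M was the allele without a called member. In V303M homozygotes 0 of 41 tested members were called, where 0.0657% of all genes (9 genes) were, and in heterozygotes 0 of 41, where 0 genes (0%) were. DESeq2 called 0 in both as well, and 2 and 1 members had an unadjusted p under 0.05. The members' log2 changes ran from -0.89 to 0.55 in homozygotes, with a median of 0.06. Mcidas was at 7.98, 9.52 and 10.9 CPM in homozygotes against 9.19, 12.6 and 15.7 CPM in wild type, and Ccno at 40.3, 52.3 and 60.2 CPM against 56.9, 57.2 and 62.1 CPM. Both overlapped. The summed level was 974 ± 184 CPM in homozygotes (103% ± 19.4 of wild type) and 865 ± 192 CPM in heterozygotes (91.6% ± 20.3). A call that misses the threshold with 3 libraries a group does not show that the levels are alike.

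Beyond the 50 genes, a list of further motile cilia genes, 92 of them in a table, had median changes closer to 0. In C442G homozygotes 32 of 53 tested were called lower and 5 higher, with a median log2 change of -0.81, and in +/C442G 25 of 53 lower and 3 higher, with a median of -0.63. Of all genes, 23.1% were called lower in C442G homozygotes and 13.4% in +/C442G, where 13.1% were called higher. In the homozygotes lower calls made up 54.2% of all calls. In B6 Aire +/- edgeR called 0 of 42, where 0.48% of all genes were called, with 3 at an unadjusted p under 0.05. Its largest changes in C442G homozygotes were Foxn4, a factor of the multiciliated programme (-6.31 ± 0.62), Ccdc67, the Deup1 gene of basal body assembly (-6.29 ± 0.54), Cfap69 (-5.60 ± 0.53) and Cfap46, of the central pair (-5.49 ± 0.51). In +/C442G the same genes changed by -3.35 ± 0.47, -3.16 ± 0.41, -1.88 ± 0.37 and -1.47 ± 0.34. Genes of the primary cilium and of transport along it, which nearly all cells use, centred on 0: in C442G homozygotes 10 of 44 were called lower and 6 higher, with a median of -0.06. Their lower calls are near the share of 23.1% over all genes. Their summed level was nevertheless below wild type (1185 to 1231 CPM) in every C442G heterozygote (1047 to 1089 CPM) and homozygote (1028 to 1079 CPM).

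Genes of secretory airway cells, the neighbours of ciliated cells in the airway, were called lower in most of these groups too. All 10 tested were called lower in Y86C, C313X and C442G homozygotes, 7 of 9 in B6 Aire -/- and 8 of 10 in +/C442G (median -1.54), and edgeR called 0 of 9 in B6 Aire +/-, with 0 at an unadjusted p under 0.05. Of all genes, 27.9%, 15.2%, 23.1%, 18.9% and 13.4% were called lower in these groups in that order, and 0.48% were called in Aire +/-. Their summed level was 985 to 992 CPM in C442G wild types, 352 to 609 CPM in heterozygotes and 98.8 to 135 CPM in homozygotes, without overlap at either step. On NOD 8 of 8 were called lower in -/C313Y, at 81.9 to 98.4 CPM against 321 to 604 CPM. In NOD Aire -/- 6 of 8 were, although the sums overlapped (187 to 583 CPM against 416 to 588 CPM in Aire +/-), as they did in +/C313Y, with 5 of 8 lower (79.0 to 219 CPM against 216 to 355 CPM). The shares of all genes called lower were 12.9% in -/C313Y, 9.11% in NOD Aire -/- and 11% in +/C313Y. In Y86C homozygotes the secretoglobins Scgb3a2 and Scgb3a1 changed by -5.92 ± 0.80 and -5.62 ± 0.52, and the mucin Muc5ac by -4.98 ± 0.48.

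Summed markers of some other cells differed between the C442G genotypes. Summed thymocyte markers were at 51.7 to 91.1 CPM in wild type, 28.6 to 39.8 CPM in heterozygotes and 38.9 to 82 CPM in homozygotes, which overlapped wild type. In heterozygotes 1 of 6 tested was called lower, near the 13.4% of all genes called lower. Summed cortical epithelial markers were at 2844 to 3747 CPM in wild type, 3826 to 5052 CPM in heterozygotes and 4739 to 5910 CPM in homozygotes, with no overlap between wild type and either mutant group. In heterozygotes 2 of 6 were called higher, where 13.1% of all genes were. In homozygotes 2 of 6 were as well, where the 23.1% of all genes called lower made up 54.2% of all calls. Summed myeloid markers were at 659 to 843 CPM in wild type, overlapping heterozygotes at 823 to 1307 CPM, and all homozygotes lay above, at 946 to 1069 CPM. The single markers did not follow this sum. In homozygotes 4 of 7 were called lower, beside 23.1% of all genes, and 2 higher, with a median log2 change of -0.62. Summed fibroblast and endothelial markers were at 116 to 157 CPM in wild type, 205 to 330 CPM in heterozygotes and 257 to 389 CPM in homozygotes. Of these, 1 of 5 was called each way in heterozygotes, beside 13.4% of all genes lower and 13.1% higher. In homozygotes 1 of 5 was called each way as well, and the median log2 change was -0.57, against the direction of the sum. In C313X homozygotes 4 of 8 thymocyte markers and 5 of 7 myeloid markers were called lower, beside 15.2% of all genes. The part of these cells in the levels of the motile cilia genes was not tested.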

How the data were processed

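The members and the gene lists set beside them were chosen with earlier results of these data known. Tags were processed by the authors with bcl2fastq, cutadapt, STAR 2.4.2a, HTSeq and DESeq2 on build mm10, per the submitters' processing notes. Tool settings, gene annotation, strand handling and any collapse of molecular identifiers are not given in the sources used here. The authors deposited raw counts per gene and library in 6 tables, each limited to genes that reach a count of 6 in some library. Only the raw counts were used, and 148 other per-sample columns were not.

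Groups came from titles and genotype labels, with 73 libraries in 21 groups. CPM, a library's counts scaled to its total, were computed here from the deposited counts. R 4.3.3 with edgeR 4.0.16 tested the counts (TMM factors, filterByExpr, quasi-likelihood F test, robust dispersion, all groups of a table in 1 fit), Benjamini-Hochberg adjusted over all tested genes and called under 0.05. Heterozygous effects on B6 were compared in a joint fit of 14815 genes shared by 4 tables, of which 14547 were tested. P-values measure only the spread between these libraries. The scripts were tested on simulated data.

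Named genes were Foxj1, Mcidas, Ccno, Rfx2, Rfx3, the 5 most abundant members in wild type, up to 6 members each way per comparison with the largest called change where the higher group reached 3 CPM, up to 4 genes of each other list in the comparison with most calls, and Aire. Genes named outside this rule were chosen after their values were seen. Alternatives were RLE factors, DESeq2 1.42.0, no low-count filter, a fit of only the compared groups, each library left out, other NOD wild types, a replicate block and, chosen after seeing the data, library totals without scaling factors. No 2 libraries of a group agreed within sampling noise.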

Additional observations from a re-analysis of the deposited data

Results flagged for a closer look

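Within groups of 4 to 6 libraries, 54 sets of values were examined for a library far from the others, and 8 were flagged. For independent normal values about 1 in 20 would be. These sets share libraries, and a lone count among zeros is always flagged, so the number of flags is not set against chance. A single B6 Aire -/- library stood above the rest of its group in the summed level (535 CPM, median of the others 476), in Foxj1 (124 CPM, 79.7) and in Ccno (2.81 CPM, 0.829). Ccno was high in +/C442G library 81 (6.87 CPM, 2.16). Among C442G homozygotes, library 93 alone had Mcidas counts (0.543 CPM, 0), library 84 was high in Dnaic2 (142 CPM, 109) and library 92 low in Lrrc23 (3.37 CPM, 7.33). Tppp3 was high in +/C313Y library 75 (53.8 CPM, 34.2).

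The heterozygous effect of C442G differed from that of other B6 alleles in 4 of the genes named throughout, by the test of the difference in the joint edgeR fit, whose 3 comparisons share the C442G libraries. The log2 differences against the null line were -3.58 for Mcidas, -2.42 for Ccno, -2.16 for Lrrc23 and -1.54 for Tppp3. Against Y86C they were -3.37, -2.48, -1.93 and -1.22 in the same order, and against C313X -4.54, -3.48, -2.67 and -1.65. The Tppp3 difference against Y86C lost its call when any of 8 single libraries was left out, and that against C313X without +/C313X library 3.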

How the results depend on the processing

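Of 2243 alternative values for 169 results on named members, 2190 kept their direction and side of the threshold, 33 lost a call, 20 gained one and 0 changed direction. With TMM-scaled library sizes the summed level, as a percent of control, was 88.7 in B6 Aire -/-, 58.8 in Y86C, 57.1 in C313X and 53.7 in C442G homozygotes, 58.0 in +/C442G, 55.9 in NOD Aire -/- and 72.4 in -/C313Y. Without Foxj1 it was 75.6 in B6 Aire -/-, 95.3 in Aire +/-, 42.2 in Y86C, 45.7 in C313X and 41.4 in C442G homozygotes. DESeq2 called 0 members in +/Y86C, and with only C442G homozygotes and heterozygotes in the fit 5 members differed between them. Leaving out each library in turn gave 0 to 1 called members in +/Y86C, 5 to 11 for C442G against Y86C heterozygotes, 7 to 24 against C313X, 24 to 26 in +/C442G and 14 to 21 in C313X homozygotes. The cause of these moves was not tested.

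In -/C313Y the replicate numbers of mutants and wild types share only a number: same-numbered libraries had correlations of 0.064, -0.040 and 0.163, and not every library correlated best with its own number. A fit with the replicate block called 17 members lower and 1 higher, against 18 lower and 0 higher without it. Depth limits members of a few CPM, such as the 8 not tested in any single table.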

Other observations

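A library of the B6 null line carries a wild-type title and an Aire -/- genotype label, and entered no group. Its summed level of the motile cilia genes was 719 CPM, where the wild types held 577 to 618 CPM and Aire -/- 470 to 535 CPM. It had 8.94 CPM of Mcidas, 24.8 of Ccno, 19.9 of Tekt1, 18.4 of Ak8 and 93.9 of Foxj1.

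Other lists of peripheral cell types gave mixed values in +/C442G against wild type, where 13.4% of all genes were called lower and 13.1% higher. Of 7 keratinocyte genes tested 4 were called lower and 1 higher, of 6 muscle genes 3 lower and 1 higher, of 9 tuft cell genes 1 lower and 1 higher, of 7 neuroendocrine genes 2 lower and 1 higher, of 6 microfold genes 1 lower, of 5 germ cell genes 2 lower and of 3 ionocyte genes 1 lower. In C442G homozygotes the keratinocyte genes Krt1 and Krt10 changed by -2.64 ± 0.29 and -2.13 ± 0.18 on the log2 scale (edgeR). There 6 of 7 of that list were called lower, beside 23.1% of all genes.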
